A study of Mus musculus with 2 samples.

Results

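The inhibitor of differentiation genes Id1, Id2, Id3 and Id4 were examined for binding of Etv4 and Etv5 in EpRas cells, a mouse mammary gland epithelial line (EpH4) transformed with oncogenic H-Ras. Every region of the Etv4 and Etv5 lists that lay inside one of the 4 genes, or within 50 kb of it in GENCODE annotation of mm10, was counted. The rule found 15 of the 13636 Etv4 regions and 2 of the 8297 Etv5 regions. EpRas cells in 4% serum had received 1 ng/ml TGF-β3 for 1.5 h, and chromatin was immunoprecipitated with a rabbit polyclonal antibody to Etv4 or a mouse monoclonal antibody to Etv5. There was 1 library per antibody, without a replicate, so the lists are described side by side and no difference between them was tested. Untreated cells, EpH4 cells and input DNA were not analysed here. The lists hold neither read counts nor RNA levels, so the sequencing depth, the expression of the Id genes and the epithelial markers of the line could not be checked from them.

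Id proteins carry a helix-loop-helix domain but no basic DNA-binding stretch. They pair with E proteins, the broadly expressed bHLH factors that bind E-boxes, and keep them off DNA, and they are also known to bind some ETS-domain factors. Id genes respond quickly to ligands of the TGF-β family: bone morphogenetic proteins (BMPs) induce them through Smad1 and Smad5, and TGF-β lowers Id1 in many epithelial cells with the help of Smad3 and Atf3. In the mammary gland, Id2 is known for its requirement in alveolar development, and Id4 for its expression in basal cells. Etv4 and Etv5 belong to the PEA3 group of ETS transcription factors, which recognise a GGAA core and act downstream of Ras and ERK signalling.

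All 4 Id genes had Etv4 regions, and only Id1 had Etv5 regions. Id1 had 6 Etv4 regions, Id3 had 4, Id2 had 3 and Id4 had 2. The Etv4 list is the longer one, and when it was limited to its first 8297 regions by number, the length of the Etv5 list, Id1 kept 5 regions, Id3 kept 2, Id2 kept 1 and Id4 had 0. Neither Etv4 region inside Id2 was among those kept. The percentages of protein-coding genes that follow refer to the full Etv4 list, and none is given for the shortened one. Among 21938 protein-coding genes, 53.4% had at least 1 Etv4 region under the same rule and the median was 1 region per gene (quartiles 0 and 2). The count of Id4 was reached or exceeded by 32.2% of protein-coding genes, that of Id2 by 20.7%, that of Id3 by 13.4% and that of Id1 by 6.09%. Id genes are short, with bodies of 1160 to 4799 bp, and of the protein-coding genes up to 5 kb long 44.3% had an Etv4 region. An Etv5 region was present at 42.7% of all protein-coding genes and at 36.5% of the short ones, compared with 1 of the 4 Id genes. The combination seen at Id2, Id3 and Id4, at least 1 Etv4 region and no Etv5 region, occurred at 16.9% of protein-coding genes. The share depended on the number of Etv4 regions: no Etv5 region was listed at 31.2% of the genes with 2 Etv4 regions (as Id4), at 19.4% of those with 3 (as Id2), at 13.5% of those with 4 (as Id3) and at 6.58% of those with 6, the number of Id1. An overlap of an Etv4 with an Etv5 region occurred at 29.5% of protein-coding genes and, among the Id genes, at Id1.

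**Figure D1:**
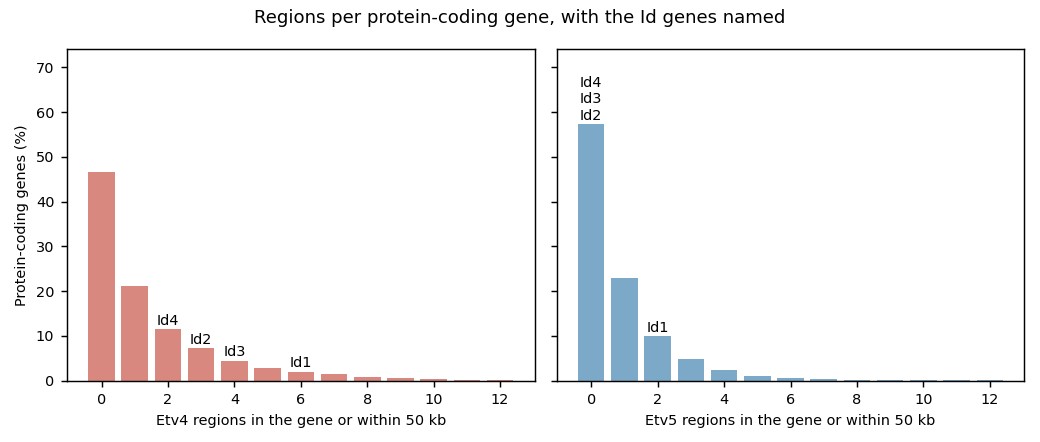
Bars give the percentage of 21938 protein-coding genes (y axis) with each number of Etv4 regions (left, x axis) or Etv5 regions (right, x axis) in the gene or within 50 kb; genes with more than 12 are not drawn. The names mark the counts of the Id genes, which are 2, 3, 4 and 6 for Etv4 and 0, 0, 0 and 2 for Etv5.

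Shown first are the initial 300 bases of each of the 2 stretches of DNA common to both lists, which are 308 and 379 bp long, since they are the only places near an Id gene that both antibodies recovered. Both were assigned to Id1 by the 50 kb rule, although the start nearest to the midpoint of the Etv4 region was that of Gm26841 (at -4321 bp) for the upstream one and of Gm14162 (at -4084 bp) for the downstream one, where a negative value puts the region upstream of that start. One lies 35.2 kb upstream of the Id1 start, at chr2:152700947-152701246, and the other 5.37 kb downstream of it, at chr2:152741542-152741841. Both are given 5′ to 3′ on the plus strand of mm10. Capitals mark the AP-1 pattern (TGACTCA, which reads TGAGTCA on the other strand) and the GGAA core with 1 flanking base on each side (A or C before it and A or G after it, on either strand). AP-1 sites bind Fos and Jun dimers and often stand beside ETS sites in Ras-responsive enhancers.
Id1 upstream element: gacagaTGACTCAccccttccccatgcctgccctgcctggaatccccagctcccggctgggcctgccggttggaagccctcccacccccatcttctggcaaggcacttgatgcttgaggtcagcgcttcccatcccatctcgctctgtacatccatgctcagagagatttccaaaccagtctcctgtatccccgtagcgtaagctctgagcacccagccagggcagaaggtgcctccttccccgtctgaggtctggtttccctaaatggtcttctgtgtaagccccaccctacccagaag
Id1 downstream element: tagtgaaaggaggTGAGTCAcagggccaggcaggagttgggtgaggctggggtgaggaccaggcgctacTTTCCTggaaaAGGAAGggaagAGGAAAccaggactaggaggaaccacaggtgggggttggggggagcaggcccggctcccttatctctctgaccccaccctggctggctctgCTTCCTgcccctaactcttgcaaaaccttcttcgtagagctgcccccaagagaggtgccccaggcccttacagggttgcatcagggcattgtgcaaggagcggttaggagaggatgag
The upstream element has its AP-1 site near the 5′ end and no GGAA core of this form. The printed part of the downstream element has 1 AP-1 site and 4 GGAA cores, and a further core lies in the part not printed (chr2:152741898-152741903). Of the printed cores, 3 lie close together 3′ of the AP-1 site, with 49 bases between the site and the nearest core.

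The Id regions differed in kind. At their midpoints, 4 of the 15 Etv4 regions lay in exons, 4 in introns and 7 in intergenic DNA. No share of the whole list is given for these features. The Etv4 regions covered 8.742 kb in all and the Etv5 regions 0.71 kb, beside 8.96 and 4.65 Mb for the whole lists. An Id transcript start was the nearest annotated start for 7 of the 15, and a start of another gene was nearer for the other 8. At Id1 these were Gm26841 for the region 35.2 kb upstream, Gm14162 for that 5.37 kb downstream and Gm23802 for that 44.5 kb downstream. At Id3 they were Gm26001 for both upstream regions and E2f2 for the downstream one, and at Id4 they were Gm36346 upstream and Gm8588 downstream. Regions were assigned by distance alone.

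Id1 (ENSMUSG00000042745, plus strand) occupies bases 152736251 to 152737410 of chromosome 2. An Etv4 region of 812 bp (chr2:152735848-152736659) spanned its start, with 403 bp before the start and 409 bp in exon sequence, of which 319 bp are coding in at least 1 transcript. Further Etv4 regions followed immediately downstream of the gene, in intergenic DNA. They measured 1034 bp (chr2:152737707-152738740, midpoint 1.97 kb from the start) and 941 bp (chr2:152738762-152739702, 2.98 kb), and were longer than 91.9 and 87.6% of the Etv4 list. The next Etv4 region (chr2:152741326-152741920, 595 bp, 5.37 kb) overlapped the Etv5 region chr2:152741542-152741943 by 379 bp. Thus 4 of the 6 Etv4 regions lay within 10 kb of Id1. The upstream Etv4 region (chr2:152700715-152701311) lay in an intron of H13, which encodes an intramembrane protease, and contained the whole of a 308 bp Etv5 region (chr2:152700947-152701254). The sixth, of 321 bp, was 44.5 kb downstream (chr2:152780628-152780948), with 281 bp in an exon of Bcl2l1, an anti-apoptotic gene of the Bcl-2 family, and none of it coding. No Etv5 region touched Id1 or its start.

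Id3 (ENSMUSG00000007872, plus strand) occupies bases 136143497 to 136145755 of chromosome 4. It had the lowest region number of all 15, number 1766 of 13636, for a region of 838 bp (chr4:136143446-136144283). This Etv4 region spanned the gene start and covered 682 bp of exon, of which 300 bp are coding. Its midpoint fell at the start of another annotated Id3 transcript, and the RefSeq transcript starts at 136143822, also inside the region. The other Etv4 regions were distal: 777 bp at 32.8 kb upstream (chr4:136110322-136111098), 342 bp at 26.2 kb upstream (chr4:136117082-136117423), both intergenic, and 407 bp at 42.0 kb downstream (chr4:136185282-136185688) in an intron of E2f2, an E2F factor of the cell cycle. The nearest Etv5 region was downstream of Id3, inside Asap3, with a gap of 61.4 kb to the gene, beyond the 50 kb limit.

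Id2 (ENSMUSG00000020644, minus strand) occupies bases 25093799 to 25097140 of chromosome 12. Its annotated transcripts begin at different places: the outermost begins at 25097140, and the others at or within a few bases of 25096092, which is also the RefSeq start. The 2 Etv4 regions in the gene flanked the inner starts. The first (chr12:25096171-25096602, 432 bp) had its midpoint in an intron of the longest transcript, 294 bp upstream of the nearest start, and the second (chr12:25095738-25096066, 329 bp) had its midpoint 185 bp downstream of the nearest start and was exonic throughout, with 273 bp coding. Their numbers were high, 10127 and 11784 of 13636, so both fell in the later 50% of the list. The third Etv4 region was intergenic, 13.3 kb upstream (chr12:25110227-25110691, 465 bp). The nearest Etv5 region had a gap of 326.0 kb to the gene.

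Id4 (ENSMUSG00000021379, plus strand) occupies bases 48261228 to 48266026 of chromosome 13 and had no region of either list in the gene or within 25 kb. One Etv4 region of 388 bp lay 33.4 kb upstream (chr13:48227675-48228062), in introns of the non-coding genes A330033J07Rik and Gm36346. The other, of 464 bp (chr13:48314480-48314943), was intergenic, with its midpoint 53.5 kb downstream of the gene start. The gap between it and the gene end was 48.5 kb, and so just inside the limit, which applies to the gap. Just outside it, with a gap of 54.9 kb, an Etv4 region in Bcl2l1 (chr2:152792356-152792953) was not counted for Id1. The Etv5 region nearest to Id4 was upstream, with a gap of 156.0 kb.

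**Figure D2:**
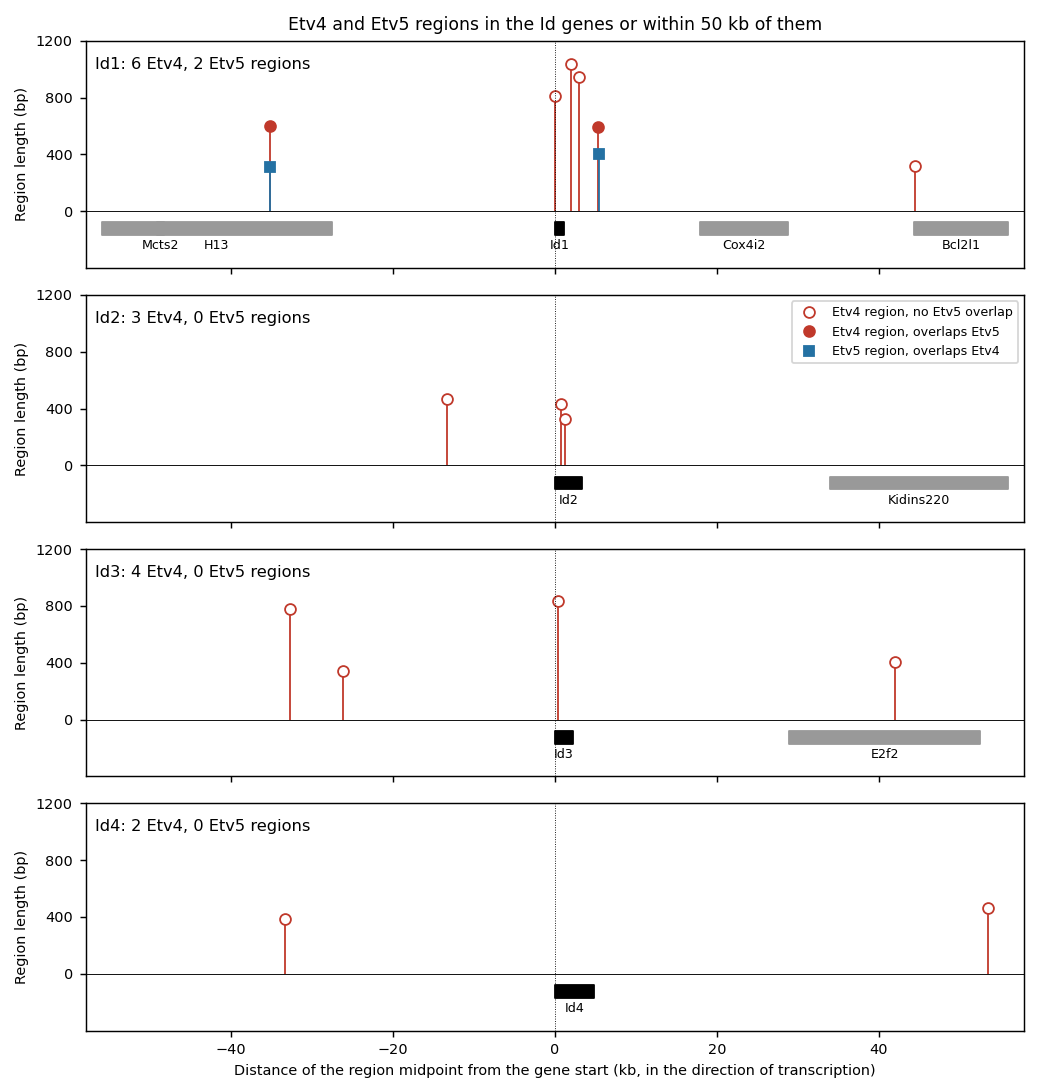
Each symbol is a region of the Etv4 list (red circles) or Etv5 list (blue squares), placed by the distance of its midpoint from the gene start in kb (x axis) at the height of its length in bp (y axis); filled symbols overlap the other list. Bars below give the Id gene (black) and other protein-coding genes (grey, cut at the edge). Filled symbols occur only at Id1, at 35.2 kb upstream and 5.37 kb downstream.

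Near the gene starts, Id1, Id2 and Id3 had an Etv4 region touching the gene body, as did 23.0% of all protein-coding genes and 13.9% of those up to 5 kb long. For Etv5 the count was 0 of 4, beside 14.7 and 6.06%. Within 2 kb of the gene start, an Etv4 region was present at 3 of the 4 Id genes and at 15.8% of protein-coding genes, and an Etv5 region at 0 of 4 and at 8.95%. The gene start itself was spanned by an Etv4 region at Id1 and Id3, as at 9.91% of protein-coding genes, and by an Etv5 region at 0 of 4, beside 4.35%. The absence of Etv5 at these starts was the more frequent outcome in the lists: of 3463 protein-coding genes with an Etv4 region within 2 kb of the start, 66.5% had no Etv5 region there. With a limit of 10 kb from the gene, 7 Etv4 regions and 1 Etv5 region remained at the 4 Id genes. The means per protein-coding gene were then 0.636 and 0.351. With 100 kb there were 21 and 7, beside means of 2.476 and 1.423 per gene. Of these 7 Etv5 regions, 5 were at Id1 and 2 at Id3.

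**Figure D3:**
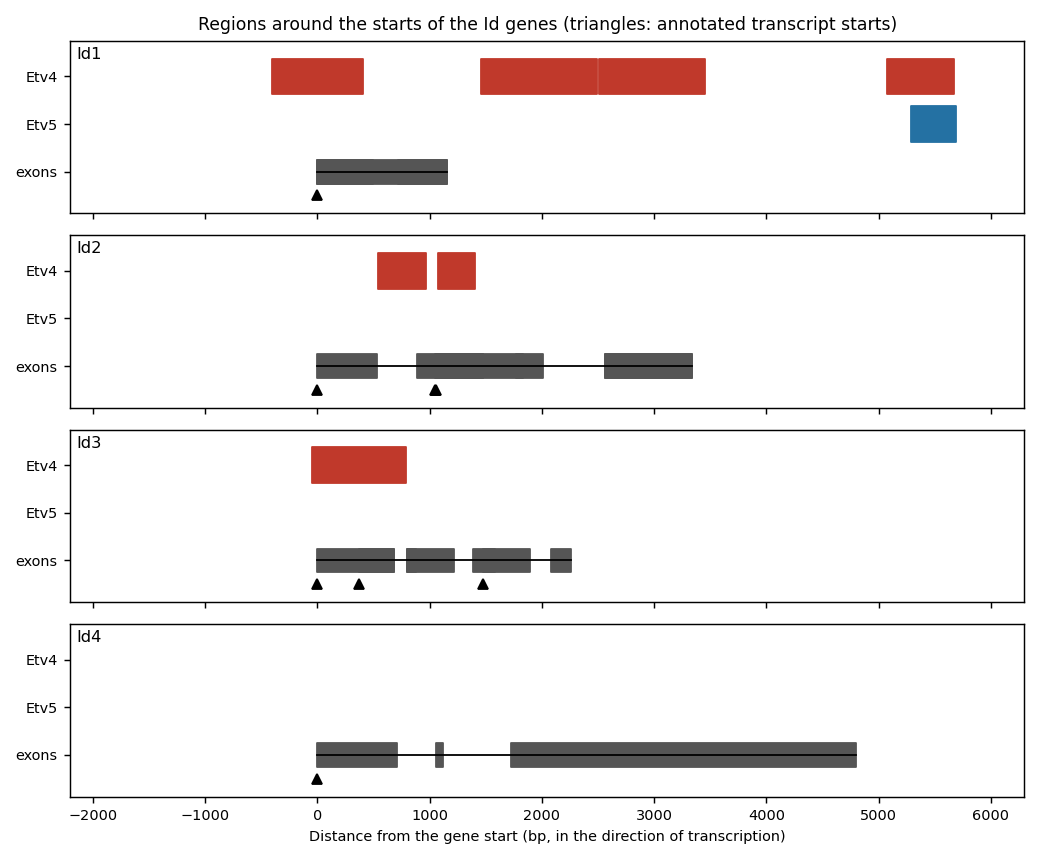
Etv4 regions (red), Etv5 regions (blue) and exons of all annotated transcripts (grey) are drawn to scale against the distance from the gene start in bp (x axis), with 1 panel per gene; triangles mark transcript starts. Etv4 regions lie on the starts of Id1 and Id3 and flank the inner starts of Id2, the Etv5 region lies beyond the 3′ end of Id1, and none lies at Id4.

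Overlap with the other list was then compared with the lists as a whole. Of the 15 Etv4 regions, 2 overlapped an Etv5 region (13.3%, exact Clopper-Pearson 95% interval 1.66 to 40.5%), beside 37.8% of all Etv4 regions. The interval covers counting error only and includes the share of the whole list. Both Etv5 regions overlapped an Etv4 region, beside 63.2% of all Etv5 regions. Overlap in the whole list varied with the region number, which orders each list by a criterion the files do not state. The Etv4 list was divided by number into 10 groups of equal size. In group 2, to which the region at the start of Id3 belonged, 68.8% of regions overlapped an Etv5 region, and 59.8% of those within 2 kb of a transcript start. In group 3, which held the region at the start of Id1, the following one at 1.97 kb and the Id3 region 32.8 kb upstream, the share was 51.9%, and 42.6% near transcript starts. None of these 4 regions, the lowest-numbered of the 15, overlapped an Etv5 region. The ones that did had the numbers 4979 (5.37 kb downstream of Id1) and 7365 (35.2 kb upstream), in groups 4 and 6 with shares of 43.3 and 29.5%. The Etv5 regions themselves had the numbers 4406 and 8067 of 8297. The upstream one, number 8067, was short, and 3.56% of the Etv5 list was shorter.

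**Figure D4:**
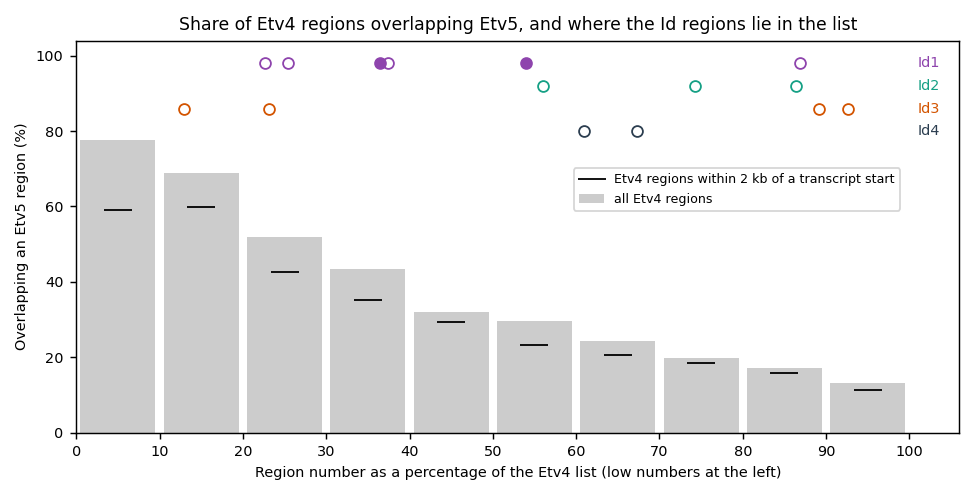
Bars show the percentage of Etv4 regions that overlap an Etv5 region (y axis) in 10 equal groups of the Etv4 list by region number (x axis, as a percentage of the list), and dashes the same for regions within 2 kb of a transcript start. Circles above give the positions of the 15 Id regions in the list, filled where they overlap Etv5; the bars fall from 77.7 to 13.2%, and the filled circles lie over groups 4 and 6.

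The sequence in the 500 bp around the midpoint of each region was searched on both strands. The ETS pattern CAGGAAGT or CCGGAAGT was present in 0 of the 15 Etv4 regions (upper limit of the interval 21.8%) and in 0 of the 2 Etv5 regions, beside 10.2% of all Etv4 and 7.94% of all Etv5 regions. It was not found in the whole regions either. The GGAA core with a flanking base on each side was present in 12 of 15 Etv4 regions, beside 81.5% of the list. AP-1 sites were found in 7 of 15 (46.7%, interval 21.3 to 73.4%), beside 37.4% of the list. All of the 7 were among the 10 regions more than 2 kb from any transcript start (70.0%, interval 34.8 to 93.3%, beside 47.6% of all such Etv4 regions), and none of the 5 nearer regions had one in this window, beside 19.7%. The region at the start of Id1 held an AP-1 site outside the window, at chr2:152735884-152735890. The site nearest to the midpoint lay 2 to 103 bp from it in the 7 regions. Over all Etv4 regions with an AP-1 site the median was 70.0 bp, and 67.1% lay within 103 bp, a limit taken from these 7.

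The 5 Etv4 regions that had an AP-1 site and no Etv5 overlap are shown around that site, to compare its neighbourhood with the elements of Id1. They come from chr12:25110496-25110576 (Id2), chr4:136110676-136110756, chr4:136117191-136117271 and chr4:136185548-136185628 (Id3), and chr13:48314694-48314774 (Id4), with 81 bases each on the plus strand and the same capitals.
Id2, 13.3 kb upstream: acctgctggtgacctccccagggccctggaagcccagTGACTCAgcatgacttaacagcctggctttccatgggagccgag
Id3, 32.8 kb upstream: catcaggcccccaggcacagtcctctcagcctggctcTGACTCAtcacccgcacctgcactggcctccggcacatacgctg
Id3, 26.2 kb upstream: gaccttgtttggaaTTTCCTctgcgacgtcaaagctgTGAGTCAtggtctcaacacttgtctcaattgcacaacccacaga
Id3, 42.0 kb downstream: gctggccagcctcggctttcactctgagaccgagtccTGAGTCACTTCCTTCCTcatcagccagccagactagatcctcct
Id4, 53.5 kb downstream: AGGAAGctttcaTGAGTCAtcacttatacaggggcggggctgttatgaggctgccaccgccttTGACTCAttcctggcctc
In the Id3 region 42.0 kb downstream, a GGAA core on the minus strand directly adjoined the AP-1 site, with a second core overlapping the first. The Id4 region had 2 AP-1 sites, and 6 bases separated a core from the first of them, and in the Id3 region 26.2 kb upstream 17 bases did. A core within 20 bases of an AP-1 site thus occurred in 3 of the 7 Etv4 regions with AP-1 sites, beside 1018 of the 5100 such regions in the list. This distance was chosen after these sequences had been seen.

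At the gene starts, the Etv4 regions of Id1, Id2 and Id3 held neither an ETS nor an AP-1 pattern in the window. The region over the start of Id1 had 2 GGAA cores, which are not shown. The 2 regions of Id2 and the region of Id3 also had 2 cores each, and 1 core per gene was picked to be shown in 30 bases. The Id2 core lies in the upstream one of its 2 regions (chr12:25096220-25096249, minus strand), and the Id3 core in the region over its start (chr4:136143655-136143684, plus strand). Both stretches lie in annotated exons, and capitals mark the core.
Id2 core: tggctgcgaacgCGGAAGaaccgagagctc
Id3 core: cagaccagcctaAGGAAGcctgttagcaat
Both cores fall in the 300-base RefSeq promoter windows (GRCm38), which were given for Id2, Id3 and Id4. Etv4 regions covered 300 bases of the window of Id3, 196 of that of Id2 and 0 of that of Id4. None of the 3 windows had the ETS pattern, which was present in 7.07% of 32851 RefSeq promoters. The palindromic GC-rich Smad pattern GGCGCC, a form of site that Smad1 and Smad5 bind in BMP target genes, was present in the windows of Id2 and Id4, beside 11.9% of promoters.

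Other patterns linked to Id regulation were counted in the same 500 bp. GGCGCC was present in 3 of the 15 Etv4 regions, beside 9.88% of the list. Within 2 kb of a transcript start it was in 1 of 5, beside 22.0% of such Etv4 regions. Farther away it was in 2 of 10 (interval 2.52 to 55.6%), beside 2.92%. The Etv4 region 33.4 kb upstream of Id4 had 2 such sites around the only ATF/CRE site (TGACGTCA, 1.55% of the list) of the 15. They are shown in capitals from chr13:48227839-48227929, plus strand.
Id4, 33.4 kb upstream: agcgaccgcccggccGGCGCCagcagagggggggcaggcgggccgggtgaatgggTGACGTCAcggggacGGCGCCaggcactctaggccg
The Smad palindrome GTCTAGAC and the Egr pattern (GCGGGGGCG or GCGTGGGCG) were found in 0 of 15, beside 0.799 and 1.74% of the list. RUNX sites (TGTGGTT or TGTGGTC) were in 5 of 15, beside 24.7%. E-boxes (CAGCTG or CACCTG, and also the form CACGTG) are the sites of the E proteins that Id proteins hold off DNA. They were in the 500 bp of 13 of 15 Etv4 regions (86.7%, interval 59.5 to 98.3%), beside 52.2% of the list. For the exonic region of Id2 and the Id3 region in E2f2, the only E-box in the window lay outside the region. In 200 bp around the midpoint E-boxes were in 5 of 15, beside 27.1%, and in the whole regions in 12 of 15, beside 7903 of the 13636. GC content was high in these windows, with a median of 57.4% (46.2 to 67.8%), and 13 of 15 exceeded the median of the list (49.6%). Its part in the E-box and GGCGCC counts was not tested. The backwards ETS letters (TGAAGGAC or TGAAGGCC), a control of equal composition, were in 2 of 15, beside 3.59%.

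**Figure D5:**
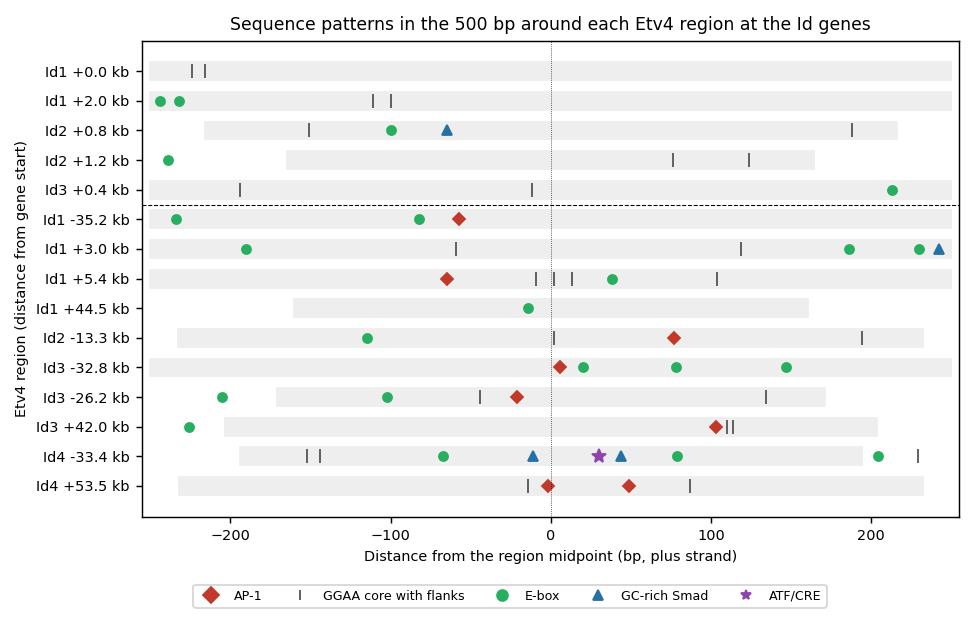
Each row is an Etv4 region at an Id gene, labelled by the distance of its midpoint from the gene start, with grey bars for the region (cut at 500 bp) and symbols for patterns against the distance from the midpoint in bp (x axis). The 5 rows above the dashed line lie within 2 kb of a transcript start and have no AP-1 symbol, whereas 7 of the 10 rows below it have at least 1.

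Genes that act with or on the Id proteins were counted by the same rule. Of a list of 22 such genes, 14 had an Etv4 region (63.6%, beside 53.4% of protein-coding genes) and 10 an Etv5 region (45.5%, beside 42.7%), so the list stood near the background. The rule takes in the whole gene body, and some of these genes are far longer than the Id genes. Tcf4, Tcf12 and Bmpr1b measure 345.72, 269.18 and 332.29 kb, so their counts are not directly comparable. The E proteins all had Etv4 regions, with 3 each at Tcf3 and Tcf4 and 2 at Tcf12, and Tcf3 had an Etv4 and an Etv5 region within 2 kb of its start. Upstream of Id transcription, Smad1 and Smad9 had no region and Smad5 had 1 of each list. Among the BMP ligands, Bmp2 and Bmp4 had none, whereas Bmp6 had 3 Etv4 and 2 Etv5 regions and Bmp7 had 2 and 3. Of the BMP receptors, Acvrl1 and Bmpr2 had none, Bmpr1a had 1 Etv5 region and no Etv4 region, Bmpr1b had 4 Etv4 regions in the gene and no Etv5 region, and Acvr1 had 2 Etv4 regions and 1 Etv5 region. Atf3, which represses Id1 together with Smad3, had 5 Etv4 and 3 Etv5 regions with 3 overlaps, Myc had 7 and 2 without an overlap, and Egr1 had none. Among genes that E or Id proteins act on, Cdkn1a had 6 Etv4 and 3 Etv5 regions, whereas Cdkn2a had 4 and 0, Cdkn2b had 1 and 0 and Hes1, a bHLH repressor, had 4 and 0. An Etv4 region lay within 2 kb of the start of Hes1 and of none of the other 3. The TGF-β feedback genes Smad6, Smad7, Ski and Skil all had regions of both lists. Smad7 alone had 18 of their 24 Etv4 and 5 of their 11 Etv5 regions, and Smad6, Ski and Skil had 2, 3 and 1 Etv4 regions with 2 Etv5 regions each. Among the EMT factor genes, Snai1 had 16 Etv4 and 6 Etv5 regions, Zeb2 had 4 and 1, Zeb1 had 1 of each, Snai2 had 1 and 0, and Twist1 had none. The difference between these groups and the Id genes was not tested.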

How the data were processed

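ChIP-seq regions were taken from 2 BED lists, with 1 library per antibody in EpRas cells. Per the study's methods, CisGenome was run by the authors on each library alone (window of 300 bp, p threshold of 0.1), with no input. The submitters' processing notes name Bowtie and mm10. The score that the authors deposited is 1000 for every region, and the deposited positions are base pairs of mm10, printed counting from 1. Lengths are uncertain by 1 bp. The criterion of the region number is not given in the sources used here. No depth is known, and intervals treat regions as independent.

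Genes came from GENCODE M21 and sequence from GRCm38. A region belonged to a gene when at least 1 base lay in it or within 50 kb. Overlap required 1 bp. Positions upstream or downstream of a gene run from the region midpoint to the gene start, whereas the 50 kb limit and the distances of the nearest Etv5 regions and of regions just inside or outside the limit are gaps between the region and the gene. Between 0 and 9.86% of the 36-base sequences of the 17 regions occur more than once in the assembly. Members, gene lists and patterns were chosen with earlier results of these data known. Named are the 4 Id genes, all their regions, the genes at or nearest to these regions, and fixed lists of partner, feedback and EMT genes. Functions were tested on simulated data. The tools were matplotlib 3.10.9, scipy 1.17.1, pandas 2.3.3, numba 0.67.0 and numpy 2.4.6, run in Python 3.11.15. Alternatives concerned distance, list length, merging, overlap rule, window and pattern.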

Additional observations from a re-analysis of the deposited data

How the results depend on the processing

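Of 35 values recomputed under other settings, 15 stayed and 20 moved, where a count stayed if within 1.5 times its main value and a share if within the 95% interval of its main value, and of 4 more, with settings chosen after seeing the data, 3 stayed and 1 moved. The 15 Etv4 regions became 8 at 25 kb, 6 in the first 50% of the list by number, 7 in the longer 50% and 8 with lists of equal number, with which Id4 had 0. The 2 Etv5 regions became 1 at 25 kb, 7 at 100 kb and 0 in the first 50% by number and in the longer 50%. The overlapping regions, 2 of each list, became 0 in the first 50% by number and stayed at 2 under the other rules of overlap and with lists of equal number. The share of protein-coding genes with an Etv4 region was 42.8% at 25 kb, 65.5% at 100 kb, 35.7% in the first 50% and 55.5% on autosomes, and with an Etv5 region 31.8, 56.3, 26.0 and 44.6%. The ETS count of 0 became 12 Etv4 regions and 1 Etv5 region with the loose pattern. The E-box count of 13 became 5 in 200 bp. Fewer regions, a shorter distance and a shorter window lower a count by construction. Depth is unknown, so an absent Etv5 region may not have been detectable. No paired analysis was possible because there was 1 library for each antibody, without a replicate.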
